A study of Mus musculus with 9 samples.

Results

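Toll-like receptors are the germline-encoded sensors through which macrophages, dendritic cells and endothelium detect microbial lipids, proteins and nucleic acids. In the liver they meet bacterial products that arrive with portal blood, and Kupffer cells, the resident macrophages, are among the cells known to carry them. One group sits at the cell surface and reads lipopeptides and lipopolysaccharide, and the other sits in endosomes and reads RNA, DNA and, in mice, the protozoan protein profilin. Most signal through the adaptor MyD88, and Tlr3 and part of Tlr4 signalling use the adaptor TRIF.

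The 10 receptor genes described here were Tlr1, Tlr2, Tlr3, Tlr4, Tlr6, Tlr7, Tlr8, Tlr9, Tlr12 and Tlr13. They were taken by name from the 21936 protein-coding rows of the deposited table of normalized counts. Normalized counts are whole counts, taken here as reads, divided by 1 scaling factor per library. All 10 averaged 10 or more normalized counts over the 9 libraries and entered the test, as did 11809 genes in all. Groups were compared with limma on log2(normalized count + 1), and a gene passed where its p, adjusted over those 11809 genes, was below 0.05. RNA was from cells sorted as lymphatic endothelium from the liver of IL7GFP knock-in mice, a fluorescent reporter strain. All groups carried this reporter: 3 sham-operated libraries, 3 from mice 2 weeks after bile duct ligation and 3 from mice 4 weeks after it. Ligation blocks bile flow and is a model of cholestasis. The labels give 20000 to 50000 cells sorted into TRIzol for each sample, and total RNA libraries depleted of ribosomal RNA. The sources used here do not give strain, age, sex, the number of reporter alleles, pooling of animals, the sort gate or the time from sham surgery to collection.

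The libraries held between 592419 (sham replicate 2) and 5314381 (2-week replicate 1) whole reads on the table's genes, so that a single read counted for 5.26 normalized counts in sham replicate 2 and for 0.589 to 1.23 elsewhere. Sham replicate 2 stood apart, with a median correlation across genes of 0.774 with the others, against 0.888 to 0.928 for the rest. It also had the lowest summed level of 8 lymphatic endothelial markers, 5231 normalized counts against 13808 to 43283. Of these markers, 7 entered the test, and Ccl21a had 1 read in all libraries together. Transcripts of other cells were present: 12 macrophage and Kupffer cell markers summed to 29771 to 75104 normalized counts in sham, 32632 to 74649.7 at 2 weeks and 13674 to 33812 at 4 weeks. In 4-week replicate 1 that sum was 33812, against 13674 and 17496 in the other 4-week libraries, and this library also had the highest level of Tlr2, Tlr4, Tlr6, Tlr7, Tlr8, Tlr9 and Tlr13 in its group. Markers of other liver cells were also present. Sinusoidal endothelial markers summed to 2282 to 4589 in sham, 1402 to 1804 at 2 weeks and 1407 to 2204 at 4 weeks. At 4 weeks 4 of these 7 had a log2 difference above 0 and 3 below. Hepatocyte markers summed to 965 to 12202 in sham and 981 to 15922 at 4 weeks, and stellate and fibroblast markers to 136 to 815 and 778 to 2798. The part of macrophage or other RNA in the receptor levels was not tested.

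At 4 weeks of ligation Tlr12 fell, and it was the 1 receptor of 10 to pass the test in any comparison; 1.20% of all tested genes passed at 4 weeks, and 0.669% did so as lower. Tlr12 encodes an endosomal receptor that, with Tlr11, binds profilin of apicomplexan parasites in mice. It stood at 122, 305 and 95.0 normalized counts in sham replicates 1, 2 and 3, at 71.3, 51.6 and 46.0 at 2 weeks, and at 11.0, 19.7 and 11.1 at 4 weeks. The 3 groups did not overlap: every sham library was above every 2-week library, and every 2-week library above every 4-week library.

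The group means of Tlr12 were 174 ± 114, 56.3 ± 13.3 and 13.9 ± 5.00 normalized counts (SD, n = 3 each), so the sham mean was 12.5 times the 4-week mean. On the log2(normalized count + 1) scale the difference at 4 weeks was −3.41 ± 0.44 (SE; 95% interval −4.40 to −2.42; limma, adjusted p = 0.0105). Sham replicate 2, with 58 reads, had the highest level of Tlr12 and also the highest sum of the macrophage markers, 75104 normalized counts against 29771 and 48622 in the other sham libraries. Without it the sham mean was 108, 7.79 times the 4-week mean, and the log2 difference was −2.91, still called (adjusted p = 0.00891). The call was lost without 4-week replicate 3, where the log2 difference was −3.28 and the adjusted p 0.0614. In bulk RNA, fewer cells that carry a transcript and less of it per cell cannot be told apart.

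The earlier and later steps of the Tlr12 series, which add up to the log2 difference at 4 weeks, were both below 0. From sham to 2 weeks the log2 difference was −1.45 ± 0.44 (SE; 95% interval −2.44 to −0.45; limma, adjusted p = 0.404). The sham mean was 3.09 times the 2-week mean, and 1.93 times without sham replicate 2. From 2 to 4 weeks the log2 difference was −1.97 ± 0.44 (95% interval −2.96 to −0.97; limma, adjusted p = 0.481), with the 2-week mean 4.05 times the 4-week mean. Neither step passed over all genes. The 2 contrasts with sham share the sham libraries, so they are not independent of each other.

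**Figure D1:**
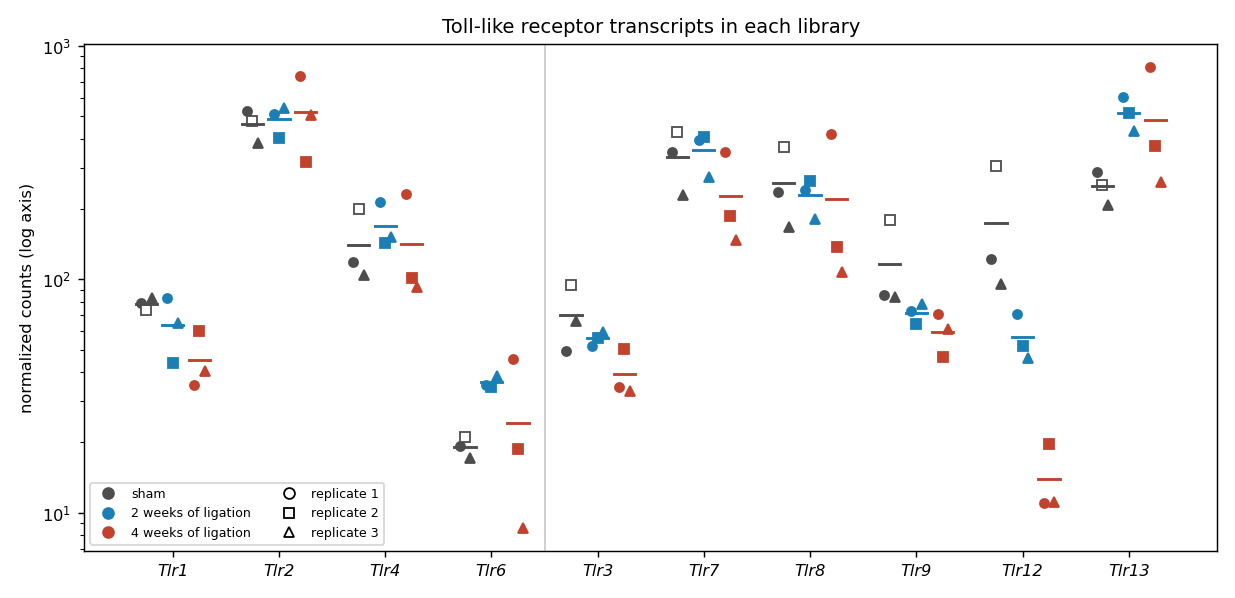
Normalized counts (log axis) of 10 Toll-like receptor genes in each of 9 libraries, surface receptors left of the grey line and endosomal receptors right of it. Marker shapes give the replicate, short bars the group mean, and the open square is sham replicate 2; Tlr12 goes from 95.0 to 305 in sham to 11.0 to 19.7 at 4 weeks.

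The Tlr12 gene (ENSMUSG00000062545) lies on chromosome 4 of GRCm38, 128615443 to 128618619 on the minus strand, and its annotated exons merge into 1 block of 3177 bases. No exon of another annotated gene overlapped it, and it shared no run of 50 bases with the transcripts of the other mouse Toll-like receptors. The 250 bases before its start are shown because it is the receptor that passed the test, beside those of Tlr11, the other profilin receptor. Both windows come from RefSeq on GRCm38.p6 and are written 5′ to 3′ on the gene's own strand. Capitals mark matches to the searched motifs.
Tlr12 (chr4:128618620-128618869, minus strand): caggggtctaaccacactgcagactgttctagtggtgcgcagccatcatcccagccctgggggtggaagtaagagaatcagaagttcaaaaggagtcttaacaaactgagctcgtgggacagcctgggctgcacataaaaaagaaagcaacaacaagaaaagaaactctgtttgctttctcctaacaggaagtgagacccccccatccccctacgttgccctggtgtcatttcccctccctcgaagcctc
Tlr11 (chr14:50357664-50357913, plus strand): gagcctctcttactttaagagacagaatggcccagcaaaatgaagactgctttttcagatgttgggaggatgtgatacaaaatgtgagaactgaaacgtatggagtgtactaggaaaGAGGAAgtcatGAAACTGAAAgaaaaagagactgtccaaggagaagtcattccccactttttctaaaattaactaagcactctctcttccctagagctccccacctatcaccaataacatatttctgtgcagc

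Both strands of the 250 bases were searched for GAGGAA, a form of the site bound by the myeloid factor PU.1. They were also searched for GAAANNGAAA, the interferon-stimulated response element, and TTCNNNGAA, the gamma-activated site. The last patterns were TGANTCA, the AP-1 site, and the NF-kB consensus. Tlr12 held no match to the searched patterns. The shorter GGAA, which its window holds, was not searched for. Tlr11 held 1 GAGGAA and 1 GAAANNGAAA, which do not overlap. Of 32851 RefSeq promoter windows of this length, 23.3% held GAGGAA, 2.98% GAAANNGAAA, 7.02% TTCNNNGAA, 6.75% TGANTCA and 5.00% the NF-kB consensus. The table held 10 windows for 8 of the 10 receptors. Among them GAGGAA was found before Tlr1, Tlr8, Tlr9 and Tlr13, GAAANNGAAA before Tlr6, TTCNNNGAA before Tlr1 and Tlr8, TGANTCA before Tlr9, and the NF-kB consensus before Tlr2 and Tlr3.

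Tlr11 itself was too low to test. It had 9, 3 and 7 reads in sham, 24, 3 and 6 at 2 weeks, and 0, 1 and 0 at 4 weeks. Per unit of size factor, the summed reads in sham were 23.7 times those at 4 weeks, with a 95% exact interval from 3.77 to 986 that covers counting error only, and 14.3 times without 4-week replicate 1. The 3-read limit for a count of 0 was 2.35 normalized counts in 4-week replicate 1 and 3.69 in 4-week replicate 3, against 5.45 to 15.8 measured in sham. The single remaining mouse receptor, Tlr5, which binds flagellin, was at 7.79 to 15.8 normalized counts in sham and 14.1 to 32.2 at 4 weeks (limma, adjusted p = 0.424).

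Of the 10 receptors Tlr13 had the largest difference above 0. It encodes an endosomal sensor of bacterial ribosomal RNA that mice have and humans lack, and lies on the X chromosome of GRCm38, 106143204 to 106160493 on the plus strand, with 4 merged exons. Its levels were 289, 252 and 208 normalized counts in sham, 605, 517 and 431 at 2 weeks, and 811, 372 and 261 at 4 weeks. All 3 of the 2-week libraries lay above all sham libraries, while 1 of the 4-week libraries lay within the sham range. The log2 difference was 1.05 ± 0.37 at 2 weeks (SE; 95% interval 0.22 to 1.88; limma, adjusted p = 0.484) and 0.79 ± 0.37 at 4 weeks (adjusted p = 0.389), so neither passed. The 4-week mean was 481 ± 291 (SD, n = 3), and 316 without 4-week replicate 1.

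Tlr9, the endosomal receptor for unmethylated CpG DNA, was lower in every ligated library than in any sham library without passing. The gene lies on chromosome 9, 106222598 to 106226883 on the plus strand, with 2 merged exons. It stood at 85.3, 179 and 84.1 normalized counts in sham, at 73.1, 64.0 and 78.5 at 2 weeks and at 70.6, 46.6 and 61.5 at 4 weeks. The log2 difference at 4 weeks was −0.88 (95% interval −1.61 to −0.15; limma, adjusted p = 0.269). Tlr3, the endosomal receptor for double-stranded RNA (chromosome 8, 45395665 to 45411080, minus strand), stood at 49.5, 94.6 and 66.2 in sham, at 51.9, 56.2 and 59.6 at 2 weeks and at 34.5, 50.1 and 33.2 at 4 weeks. Its 4-week libraries lay below all 2-week libraries but 1 of them lay within the sham range (log2 difference from sham −0.79, limma, adjusted p = 0.284). On the opposite strand of Tlr3 the annotation has Gm45542, which shares 381 exon bases with it. The sources used here do not say whether counting used strand, so reads of these 2 genes may be mixed.

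Tlr7 and Tlr8, neighbours on the X chromosome and both receptors for single-stranded RNA, did not pass at either time. They lie at 167304929 to 167330558 and 167242696 to 167264329, both on the minus strand. Tlr7 was at 351, 426 and 229 normalized counts in sham, at 394, 406 and 274 at 2 weeks and at 350.1, 187 and 148 at 4 weeks. Tlr8 was at 238, 368 and 167 in sham, at 240.5, 265 and 181 at 2 weeks and at 420.0, 137 and 107 at 4 weeks. For both genes 4-week replicate 1 lay well above the other 4-week libraries, which were both below the lowest sham library. The 95% intervals of the log2 difference at 4 weeks ran from −1.40 to 0.19 for Tlr7 and from −1.49 to 0.66 for Tlr8. The 4-week mean of Tlr8 was 221, and 122 without 4-week replicate 1.

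Among the surface receptors, Tlr2, which pairs with Tlr1 or Tlr6 to bind bacterial lipopeptides, was the most abundant per length in each group. The gene lies on chromosome 3, 83836272 to 83841767 on the minus strand. It was at 525, 478 and 383 normalized counts in sham, at 512, 401 and 543 at 2 weeks and at 743, 319 and 506 at 4 weeks. The groups overlapped, and the 95% intervals of its log2 difference from sham were −0.61 to 0.76 at 2 weeks and −0.58 to 0.79 at 4 weeks. Tlr4, the receptor for lipopolysaccharide (chromosome 4, 66827584 to 66930284, plus strand), was at 118, 199.8 and 104 in sham, at 215, 142 and 152 at 2 weeks and at 232, 101 and 92.3 at 4 weeks, with intervals of −0.56 to 1.17 and −0.93 to 0.80. The Tlr4 interval at 4 weeks reaches as far below 0 as the differences measured for Tlr9 and Tlr3, and the Tlr2 interval does not.

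The Tlr2 partners differed from each other in pattern. Tlr1, which with Tlr2 binds triacylated lipopeptides, was at 78.9, 73.6 and 83.3 normalized counts in sham, at 83.1, 43.8 and 65.0 at 2 weeks and at 35.3, 60.0 and 40.6 at 4 weeks. All 4-week libraries lay below all sham libraries (log2 difference −0.82, 95% interval −1.51 to −0.13; limma, adjusted p = 0.276). Tlr6, which with Tlr2 binds diacylated lipopeptides, was at 19.3, 21.0 and 17.1 in sham, at 35.4, 34.6 and 38.6 at 2 weeks and at 45.5, 18.8 and 8.61 at 4 weeks. Its 2-week libraries lay above all sham libraries without passing (log2 difference 0.89, 95% interval −0.28 to 2.05; adjusted p = 0.633), and its 4-week libraries lay above, within and below the sham range, with a mean of 24.3, and 13.7 without 4-week replicate 1. Tlr6 had 4 reads in sham replicate 2.

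Reads of Tlr1 and Tlr6 are partly shared, which makes the split between them uncertain. Both genes lie on the minus strand of chromosome 5, Tlr1 at 64924679 to 64933563 and Tlr6 at 64952031 to 64960097, and 13.6% of the runs of 50 bases in Tlr1 transcripts also occur in Tlr6; the other 65 pairs among 12 mouse Toll-like receptor genes shared no such run. The longest identical stretch had 229 bases and lay in the coding part of both genes, at 64925537 to 64925765 in Tlr1 and 64953828 to 64954056 in Tlr6. It is shown because a read from within it cannot be assigned to either gene.
Tlr1 and Tlr6 (chr5:64925537-64925765 and chr5:64953828-64954056, GRCm38, minus strand): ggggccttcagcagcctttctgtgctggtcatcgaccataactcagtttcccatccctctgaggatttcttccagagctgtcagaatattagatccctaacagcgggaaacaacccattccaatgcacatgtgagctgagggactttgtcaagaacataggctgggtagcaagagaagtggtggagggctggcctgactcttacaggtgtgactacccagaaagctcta

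**Figure D2:**
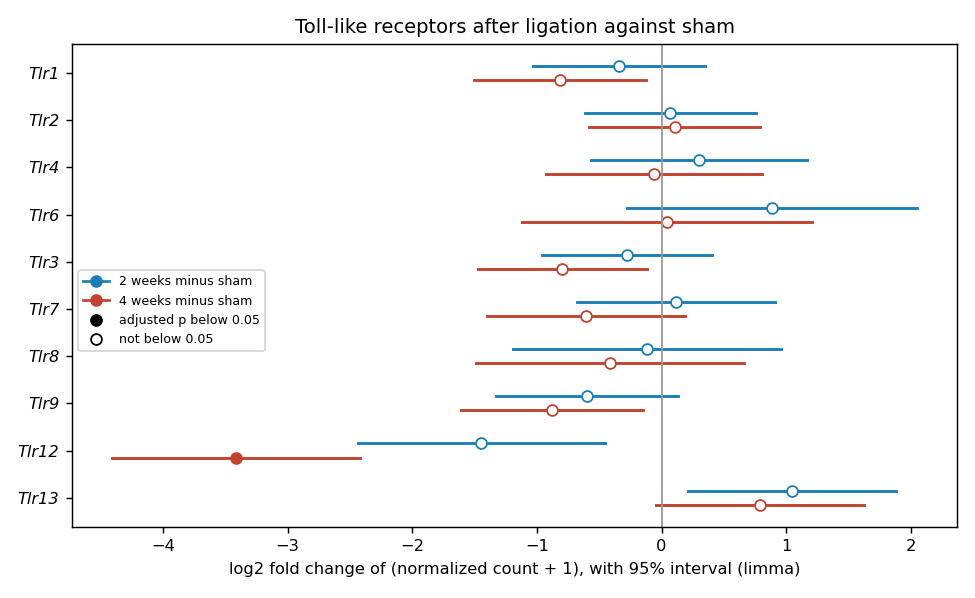
Log2 fold change of (normalized count + 1) against sham with its 95% interval (limma), for each receptor at 2 weeks (blue) and 4 weeks (red). Filled points have an adjusted p below 0.05; Tlr12 at 4 weeks, at −3.41, is the single filled point.

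Over the 10 receptors, 5 log2 differences were above 0 and 5 below 0 at 2 weeks, against 6569 and 5240 of 11809 tested genes. At 4 weeks 3 were above and 7 below, against 6519 and 5289 of all tested genes. At 4 weeks the split was 2 to 8 under TMM and quantile scaling, with Tlr6 changing sign, and 4 to 6 in edgeR and DESeq2, with Tlr4 changing sign; with 1 library left out it ran from 4 above and 6 below to 1 above and 9 below at 4 weeks, and at 2 weeks from 6 above and 4 below to 3 above and 7 below. The median of the receptors at 4 weeks was −0.51, against 0.07 over all tested genes. Leaving out sham replicate 2 gave −0.27, leaving out 4-week replicate 3 gave −0.18, and leaving out sham replicate 3 gave −0.73. No receptor passed at 2 weeks in limma, edgeR or DESeq2; 0.0169% of all tested genes passed in limma. At an unadjusted p below 0.05 there were 2 receptors (Tlr12 and Tlr13) at 2 weeks, where 8.55% of all tested genes met that limit, and 4 (Tlr1, Tlr3, Tlr9 and Tlr12) at 4 weeks, where 13.7% did. Receptors whose groups did not overlap numbered 4 at 2 weeks (Tlr6 and Tlr13 higher, Tlr9 and Tlr12 lower), against 10.2% of all tested genes higher and 7.71% lower. They numbered 3 at 4 weeks (Tlr1, Tlr9 and Tlr12, all lower), against 8.60% of all tested genes higher and 8.39% lower. Between 2 and 4 weeks no receptor passed in limma or edgeR, and Tlr12 passed in DESeq2 (adjusted p = 0.0288), where 0.357% of genes did. In limma 9 of 10 differences were below 0, against 5640 of 11809 tested genes. The count was 10 of 10 under TMM scaling, which moved the median of all genes by −0.11, and 7 of 10 without 4-week replicate 3. The groups of Tlr3 and Tlr12 did not overlap, against 4.34% of all tested genes higher and 5.06% lower. Tlr12 was the 1 receptor at an unadjusted limma p below 0.05, against 4.02%. With library quality weights 2, 2 and 1 receptors passed at 2 weeks, at 4 weeks and between them, against 9.42%, 13.6% and 2.96% of all genes. DESeq2 called 0, 1 and 1, against 0.988%, 2.71% and 0.357%. Without sham replicate 2 and 4-week replicate 1 together the counts were 0, 1 and 1, against 1.50%, 3.95% and 1.71%.

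Levels of different genes can be set side by side only per length, so normalized counts were divided by the merged exon length in kilobases. In sham the order per kilobase was Tlr2 at 153 ± 23.9, Tlr7 at 82.2 ± 24.3, Tlr8 at 71.9 ± 28.4, Tlr13 at 58.0 ± 9.41, Tlr12 at 54.8 ± 35.9, Tlr9 at 33.4 ± 15.6, Tlr4 at 25.3 ± 9.28, Tlr1 at 23.5 ± 1.46, Tlr3 at 13.5 ± 4.38 and Tlr6 at 5.14 ± 0.523 (SD, n = 3). The ranges of neighbours in this order overlapped from Tlr7 through Tlr1; Tlr2 lay above Tlr7, Tlr1 above Tlr3, and Tlr3 above Tlr6 in every sham library. At 2 weeks Tlr13 stood second, at 120.2 ± 20.2, and Tlr12 eighth, at 17.7 ± 4.18. At 4 weeks Tlr13 was again second, at 112 ± 67.6, and Tlr12 last, at 4.38 ± 1.58. The range of Tlr12 at 4 weeks overlapped that of Tlr6 above it. Without sham replicate 2, Tlr12 was still the fifth in sham, at 34.1 per kilobase.

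As a share of the summed level per kilobase of the 10 receptors, Tlr12 made up 7.44%, 14.7% and 7.60% in sham, 3.74%, 3.13% and 2.88% at 2 weeks, and 0.472%, 1.79% and 0.987% at 4 weeks. Tlr13 made up 13.01%, 8.97% and 12.3% in sham, 23.4%, 23.1% and 19.9% at 2 weeks, and 25.7%, 24.9% and 17.2% at 4 weeks. For Tlr13 every ligated library was above every sham library on this scale, which its normalized counts at 4 weeks were not. Tlr7 made up 14.3% to 16.7% in sham and 10.2% to 13.2% at 4 weeks, again without overlap. Tlr2 made up 24.3% to 33.7% in sham and 30.5% to 47.5% at 4 weeks, with overlap. Shares of one total are not independent of each other, and they carry no test here.

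**Figure D3:**
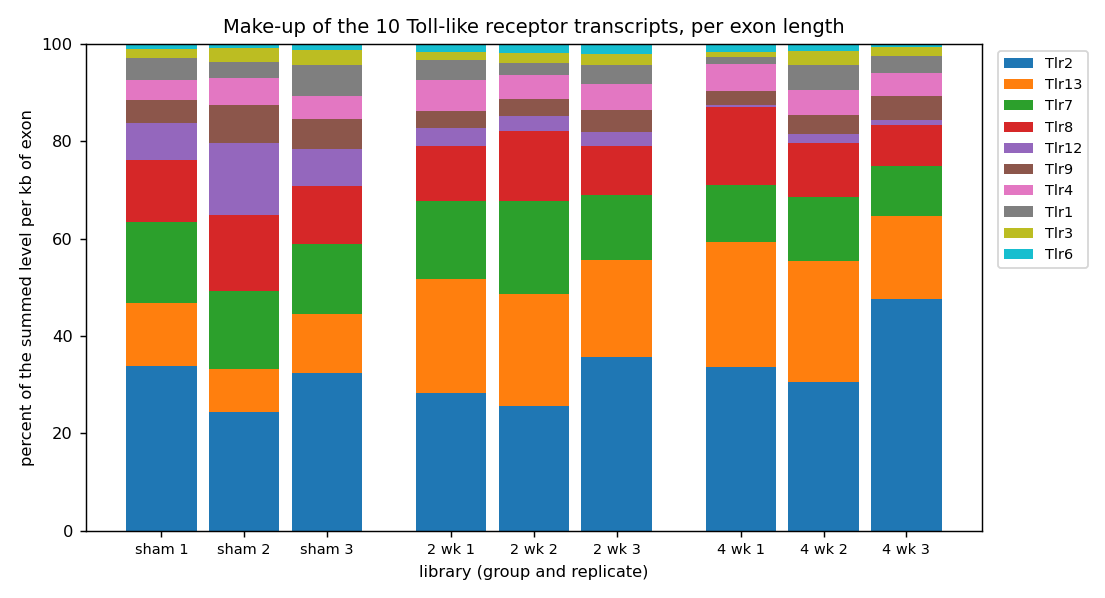
Share of each receptor (percent) in the summed level per kilobase of exon of the 10 receptors, 1 bar per library. The Tlr12 share goes from 7.44% to 14.7% in sham to 0.472% to 1.79% at 4 weeks, and that of Tlr13 from 8.97% to 13.01% to 17.2% to 25.7%.

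Levels of the macrophage and Kupffer cell markers are given beside those of the receptors. Of the 12 macrophage and Kupffer cell markers, 11 had a log2 difference below 0 at 4 weeks and 2 of them fell, Clec4f and Timd4, both marking resident Kupffer cells. Clec4f, a lectin, fell from 6850.1 to 13769 normalized counts in sham to 534 to 1733 (limma, adjusted p = 0.0268), a call lost without sham replicate 1 or 3 or 4-week replicate 2 or 3. Timd4, a phosphatidylserine receptor, fell from 729 to 2119 in sham to 40.6 to 141 (adjusted p = 0.0105), a call lost without 4-week replicate 3. At 2 weeks 5 of the 12 markers had a log2 difference above 0 and 7 below. Marco and Cd163 were then at 4.82 and 3.03 times their sham means, and Clec4f at 0.620 times. Per 1000 normalized counts of the 12 markers, Tlr12 was at 2.51, 4.06 and 3.19 in sham, at 0.955, 1.58 and 0.883 at 2 weeks and at 0.325, 1.13 and 0.810 at 4 weeks, with its ligated libraries below all sham libraries. On the same scale Tlr13 went from 3.36 to 6.99 in sham to 8.10 to 15.8 at 2 weeks and 19.1 to 24.0 at 4 weeks. Tlr2, Tlr4, Tlr6, Tlr7 and Tlr8 also lay above all sham libraries at 4 weeks, and Tlr1, Tlr3 and Tlr9 overlapped sham. Tlr7 was at 5.67 to 7.69 in sham and 10.4 to 10.8 at 4 weeks, although its mean normalized counts were 335 and 228. The marker sum was itself 29771 to 75104 in sham and 13674 to 33812 at 4 weeks, and its part in these ratios was not tested.

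These ratios depended on which marker was below the line, in a comparison with each of the 12 markers alone that was added after the values were seen. Per 1000 normalized counts of Clec4f, Tlr12 was at 12.2, 22.1 and 13.9 in sham, and 4-week values were 6.34, 18.5 and 20.7. Per 1000 of Timd4 the sham values were 112, 144 and 130.3 and the 4-week values 78.2, 301 and 273, so that against these 2 Kupffer cell markers the groups overlapped. Against the other 10 markers the 4-week libraries of Tlr12 lay below all sham libraries. At 2 weeks Tlr12 lay below all sham libraries against 10 markers and overlapped them against Clec4f and Adgre1. Per 1000 of Cd68, a lysosomal protein of macrophages, its sham values were 89.2, 127 and 111 and its 4-week values 6.28, 16.1 and 10.2. Tlr13 lay above sham at 4 weeks against 11 markers and overlapped it against Cd68. Tlr2 at 4 weeks lay above sham against 6 markers and overlapped it against the other 6, Tlr4 lay above against 8, Tlr7 against 5, Tlr8 against 6 and Tlr6 against 4, all 5 of them against Clec4f and Timd4. Against C1qa, a complement subunit made by macrophages, Tlr7 was at 77.6 to 106 per 1000 in sham and 90.9 to 108 at 4 weeks. Tlr1 and Tlr3 lay above sham against Clec4f and Timd4 and overlapped it against the other 10 markers. Tlr9 lay above against 4 markers, below against Cd68, and overlapped against 7.

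**Figure D4:**
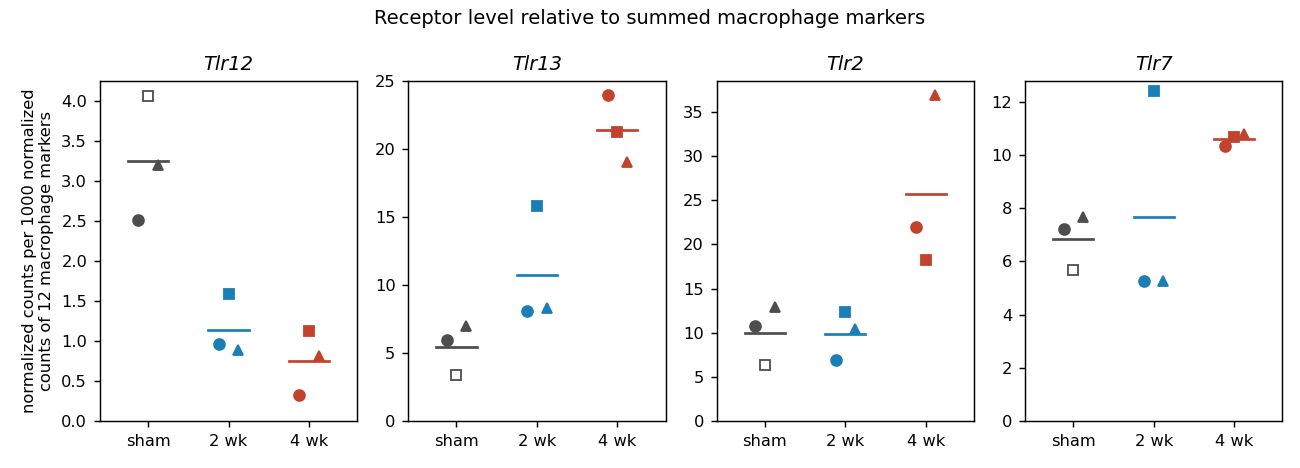
Normalized counts of 4 receptors per 1000 normalized counts of 12 summed macrophage markers, by library (points) with the group mean (bars); the open square is sham replicate 2 and each panel has its own axis. Tlr12 lies at 2.51 to 4.06 in sham and at 0.325 to 1.13 at 4 weeks, while Tlr13 goes from 3.36 to 6.99 to 19.1 to 24.0. Tlr2 and Tlr7 also lie above all sham libraries at 4 weeks.

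Markers of other white blood cells were also summed. Plasmacytoid dendritic cell markers, 6 in all, summed to 15.8 to 63.3 normalized counts in sham and 37.7 to 81.5 at 4 weeks. Most of each sum was Runx2 and Spib. Siglech, a defining marker, was at 0 in 2 of 3 sham libraries and at 6.15 at most. The 6 B cell markers summed to 10.1 to 31.5 in sham and 13.3 to 39.4 at 4 weeks. The 7 conventional dendritic cell markers summed to 263 to 291 in sham and 145 to 188 at 4 weeks, without overlap. The 3 that could be tested (Clec9a, Batf3 and Zbtb46) had log2 differences below 0, and none passed. Flt3 and Itgae, too low to test, went the other way. Flt3 was at 0 to 1.56 in sham and 6.28 to 18.5 at 4 weeks, and Itgae at 0 to 0.917 and 5.37 to 13.5. The 7 neutrophil markers summed to 219 to 347 in sham and 256 to 359 at 4 weeks, most of it Csf3r, and 1 of the 4 tested, Mmp8, rose at 4 weeks (limma, adjusted p = 0.0188). Of the 6 monocyte markers, 4 were tested and 2 rose at 4 weeks. Chil3 had 2, 0 and 0 reads in sham and 233 to 1120.1 normalized counts at 4 weeks, and F13a1 went from 27.3 to 110.4 in sham to 329 to 728. The other monocyte markers did not pass. Plac8 was at 31.2 to 347 in sham and 13.5 to 164 at 4 weeks, Ccr2 at 0 to 29.3 and 14.1 to 51.9, and Ly6c2 at 0 in sham and 5.37 at most at 4 weeks. The part of these cells in the receptor levels was not tested.

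The rest of the pathway was taken from lists of 65 further genes, of which 62 could be tested. None passed at 2 weeks, where 0.0169% of all tested genes did. At 4 weeks 2 passed, both lower: Irf7 and Il12b. Of all tested genes 1.20% passed at 4 weeks, and 0.669% did so as lower. The median log2 difference of the 62 pathway genes at 4 weeks was −0.10, against 0.07 over all tested genes. The sham and 4-week libraries did not overlap in 3 genes that were higher and 7 that were lower at 4 weeks, against 8.60% and 8.39% of all tested genes. Irf7, the transcription factor that drives type I interferon genes downstream of the endosomal receptors, fell from 606, 1798 and 504 normalized counts in sham to 174, 124 and 59.1 at 4 weeks, with 476, 291 and 379.7 at 2 weeks. Its log2 difference at 4 weeks was −2.91 ± 0.51 (SE; limma, adjusted p = 0.0295). The sham mean was 969, and 555 without sham replicate 2. The call was lost without sham replicate 1, 2-week replicate 3 or 4-week replicate 2 or 3, with adjusted p up to 0.126, and with only the 2 groups in the fit (adjusted p = 0.0987). Il12b, the p40 subunit of interleukin-12, which profilin sensing is known to induce in mouse dendritic cells, fell from 66.0, 131 and 167 in sham to 5.49, 9.85 and 6.15 at 4 weeks (log2 difference −3.84 ± 0.75 SE, limma, adjusted p = 0.0418). It was at 63.1, 5.23 and 15.6 at 2 weeks. Its call was lost in 10 of 21 alternatives, among them each fit without 1 sham or 4-week library (adjusted p up to 0.151).

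Other parts of the pathway had no member that passed. Among 15 co-receptors, chaperones and delivery factors, 8 log2 differences were above 0 and 7 below at 4 weeks, against 6519 and 5289 of 11809 tested genes. Cd180, a relative of Tlr4 on B cells and macrophages, was at 167 to 484 normalized counts in sham and 39.2 to 135 at 4 weeks (limma, adjusted p = 0.116), Ctsl, an endosomal protease that cleaves nucleic acid sensing receptors, at 736 to 1246 and 1564 to 2913 (adjusted p = 0.0978), and Ly96, the MD-2 partner of Tlr4, at 24.1 to 89.4 and 16.5 to 24.2 (adjusted p = 0.373). Of the adaptors, 5 could be tested and all 5 lay below 0 at 4 weeks, where 5289 of 11809 tested genes did. Ticam1, which encodes TRIF, was at 99.7 to 237 in sham and 67.7 to 80.1 at 4 weeks (adjusted p = 0.332), Myd88 at 141 to 252 and 114 to 287 (adjusted p = 0.785), and Pik3ap1, an adaptor to PI3 kinase, at 1175 to 2566 and 664 to 1532 (adjusted p = 0.399).

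Of the 20 kinases, ligases and transcription factors, 13 lay above 0 and 7 below at 4 weeks, against 6519 and 5289 of 11809 tested genes. Ikbkg, the NEMO subunit of the IkB kinase, was at 99.7 to 106 normalized counts in sham and 138 to 198 at 4 weeks (limma, adjusted p = 0.266), and Rela, the p65 subunit of NF-kB, at 425 to 563 and 254 to 445 (adjusted p = 0.297). Of the 8 negative regulators 6 lay below 0. Tnip1, which restrains NF-kB with A20, was at 431 to 915 in sham and 218 to 488 at 4 weeks (adjusted p = 0.305), Socs1 at 10.9 to 31.5 and 4.71 to 9.85 (adjusted p = 0.416), and Irak3, an inhibitory member of the IRAK family, at 79.4 to 147 and 97.6 to 216 (adjusted p = 0.756). Of the 13 tested cytokines and effectors that these receptors are known to induce, 11 lay below 0 at 4 weeks. Their median was −0.83, against 0.07 over all 11809 tested genes, of which 5289 lay below 0. The chemokine Ccl5 was at 192 to 762 in sham and 73.8 to 149 at 4 weeks (adjusted p = 0.223), and Cxcl10 at 635 to 1425 and 305 to 874 (adjusted p = 0.372).

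The genes whose profile over the 9 libraries was nearest to that of Tlr12 were Gbp3, Gm12185 and Irf7. Nearness was the root-mean-square distance between log2(normalized count + 1) profiles, each centred on its own mean, and came to 0.45, 0.46 and 0.47, against a median of 1.57 over all tested genes. Gbp3, an interferon-inducible guanylate-binding protein, was at 485, 1130.3 and 484 normalized counts in sham, at 398, 345 and 348 at 2 weeks and at 124, 158 and 62.8 at 4 weeks. Gm12185, a predicted gene, was at 29.3, 68.3 and 22.6 in sham, at 6.48, 9.80 and 8.80 at 2 weeks and at 1.57, 3.58 and 3.69 at 4 weeks. In all 4 genes sham replicate 2 was the highest library and the 4-week libraries were the lowest.

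**Figure D5:**
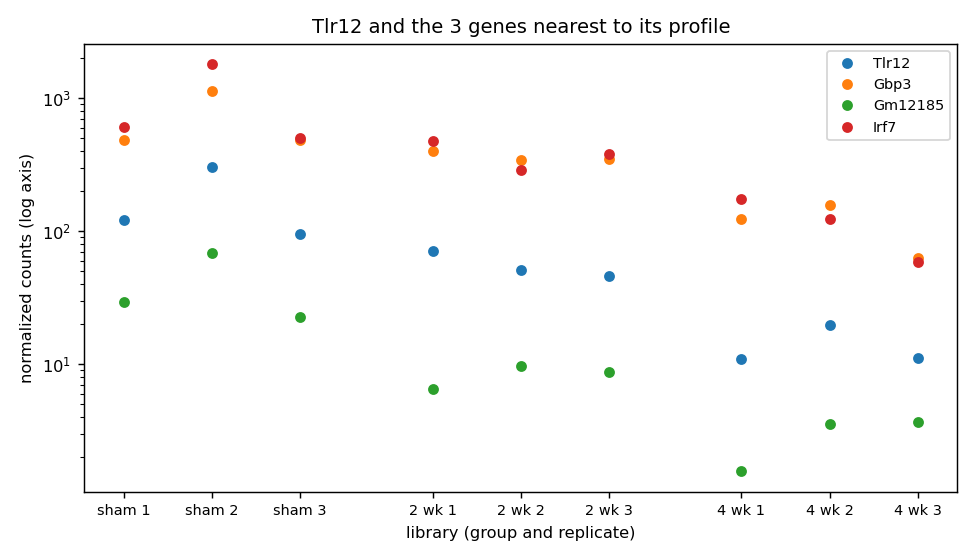
Normalized counts (log axis) of Tlr12 and of the 3 tested genes with the nearest centred log2 profile, in each of 9 libraries. All 4 genes are highest in sham replicate 2, where Tlr12 is at 305, and lowest at 4 weeks, where Tlr12 is at 11.0 to 19.7. This likeness follows from the choice of genes by profile.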

How the data were processed

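The deposited table holds a signal, normalized counts: from the values, each column is whole numbers times 1 constant. The submitters' processing notes name DESeq2 1.22.1, StringTie 1.3.3b, HISAT2 2.1.0, Trim Galore 0.5.0 and the mm10 build; settings, order, annotation and use of strand are not stated. Dividing each column by its lowest value over 0 gave whole numbers, within 0.001, for 100.0% of 197424 values. These numbers are taken as reads throughout. Whether they are counted reads or rounded estimates is not stated. Comparisons used limma 3.58.1 (R 4.3.3) with log2(normalized count + 1) as the response, on 11809 genes averaging 10 or more, with a mean per group, 6 residual degrees of freedom, a trended empirical Bayes prior, two-sided tests and Benjamini-Hochberg adjustment. Passing means an adjusted p below 0.05. Alternatives were other pseudocounts (0.5 and 5), filters and scalings, fits of 2 groups, with a replicate block or with quality weights, edgeR 4.0.16 and DESeq2 1.42.0 on the recovered reads, and leaving out each library. Exon lengths and positions came from GENCODE M21 (GRCm38, the mm10 assembly), and promoters from RefSeq (GRCm38.p6). The limma and edgeR fits were tested on simulated counts in which no library stood apart beyond its depth, as sham replicate 2 does here. The members, the lists and the rule for named genes (the 10 receptors, from each pathway list the genes that passed or else the 3 with the lowest p at 4 weeks, and the 3 genes nearest in profile to a receptor that passed) were chosen with earlier results of these data known. The design text gives 3 mice per group. Replicate pairs of a group differed beyond sampling noise (chi-square per degree of freedom 6.68 to 45.9).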

Additional observations from a re-analysis of the deposited data

How the results depend on the processing

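The fall of Tlr12 at 4 weeks kept its direction in all 21 alternatives (log2 difference −3.75 to −2.78) and its call in 20 of them; the exception was the fit without 4-week replicate 3. Receptors that passed at 4 weeks numbered 1 in every alternative but that one, where 0 did, and library quality weights, where Tlr7 joined and 2 did (Tlr7 −0.90, adjusted p = 0.0373, limma); they ranged from 0 to 1 when 1 library was left out. With weights 2 receptors passed at 2 weeks, Tlr12 (−1.20, adjusted p = 0.0213) and Tlr13 (0.83, adjusted p = 0.0383). Between 2 and 4 weeks Tlr12 was the 1 receptor to pass with weights, with DESeq2, and without sham replicate 2 and 4-week replicate 1 together (−1.76, −2.01 and −1.83). The causes were not tested.

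Over all genes, 2 passed at 2 weeks: 14 with quantile scaling, 1 with only the 2 groups compared, 1112 with quality weights, 205 in DESeq2, 178 without the 2 libraries together, and 0 to 14 with 1 library left out. At 4 weeks 142 passed: 259, 53, 1608, 562 and 467 in the same settings, and 9 to 173 with 1 library left out. Between 2 and 4 weeks 0 passed in limma (475 at an unadjusted p below 0.05; 0 in edgeR): 1 with a mean of at least 50 and 1 with TMM scaling, 349 with quality weights, 74 in DESeq2, 203 without the 2 libraries together, and 0 to 2 with 1 library left out. With the replicate number as a block 84 genes passed at 4 weeks, and Tlr12 was still called (adjusted p = 0.0249). Deviations from the group mean had correlations of −0.45 to 0.23 in same-numbered libraries, over 0.1 in 2 of 9 pairs. In differently numbered libraries of different groups they ran from −0.33 to 0.38. With 3 libraries per group this check cannot tell whether the numbers mark pairs. TMM scaling moved the median of all genes between 2 and 4 weeks by −0.11.

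Signs turned only for receptors that did not pass. With quality weights Tlr2 was at −0.0084 at 2 weeks, −0.25 at 4 weeks and −0.24 between them, Tlr3 at 0.10 at 2 weeks and Tlr6 at −0.40 at 4 weeks. Tlr4 at 4 weeks was at 0.048 in edgeR and 0.057 in DESeq2. Tlr6 at 4 weeks was at −0.011 with TMM and −0.37 with quantile scaling, and Tlr2 between 2 and 4 weeks at −0.076 with TMM. Without the 2 libraries together Tlr8 was at 0.18 at 2 weeks, Tlr2 at −0.16 and Tlr6 at −0.47 at 4 weeks, and Tlr2 at −0.26 between them. With 1 library left out, the ranges that crossed 0 were at 2 weeks −0.057 to 0.20 for Tlr2, −0.13 to 0.31 for Tlr7 and −0.39 to 0.18 for Tlr8, at 4 weeks −0.19 to 0.42 for Tlr2, −0.48 to 0.22 for Tlr4 and −0.54 to 0.60 for Tlr6, and between 2 and 4 weeks −0.26 to 0.35 for Tlr2, −0.89 to 0.086 for Tlr8 and −0.72 to 0.099 for Tlr13. Tlr5, Tlr6 and Tlr11 had 3, 4 and 3 reads in sham replicate 2.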
